A study of Mus musculus with 30 samples.

Results

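A pair of muscle libraries from a single-cell RNA series was compared, 1 from a mouse with collagen-induced arthritis (CIA) and 1 from a healthy mouse. They were taken by their labels and held 475 of the 8282 barcodes of the series, 54 from CIA muscle and 421 from healthy muscle, in 2 of its 30 libraries. Both came from male DBA1/J mice that the study's methods give as 8 to 12 weeks of age. The CIA mouse, S1, had an arthritis score of 8. It had been given 100 µg of collagen II of bovine origin with complete Freund's adjuvant, and a boost with incomplete adjuvant followed on day 20. The control mouse, H6, had a score of 0 and, by the methods, received buffer instead. The pieces of muscle were frozen, thawed, minced and digested with collagenase II and DNase I, and the strained cells were loaded on Seq-Well arrays, where a cell and a barcoded bead share a small well.

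The study used its pilot libraries to rank organs by how many genes differed between sick and healthy mice. With 1 mouse and 1 library per state no test was possible, so all differences below are values without an error, and they describe these libraries rather than the states. The deposited values are whole numbers that the authors had smoothed over neighbouring barcodes of a library. Each library was summed over its barcodes and scaled to units per 1000000 (UPM), and a difference is log2(UPM + 10) in CIA minus the same in healthy, which understates the change of low genes. In such sums more cells of a type and more RNA per cell cannot be told apart.

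Skeletal muscle is built of myofibres, long cells filled with sarcomeres in which myosin pulls on actin under the control of troponin and calcium. Between them lie fibroblasts that make the collagen matrix, endothelial cells and pericytes of the vessels, and resident macrophages. Neutrophils are made in bone marrow, where they load primary granules first and secondary granules later, and reach tissue by the blood. Arthritis in this model centres on joints, and muscle lies next to them.

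The CIA library held the marker genes of several cell types of muscle, whereas the highest cell type lists of the healthy library were those of neutrophils and red cells. The summed level of the myofibre markers was 149 UPM in healthy and 8060 UPM in CIA muscle, and that of the fibroblast markers 1326 and 27245. Macrophage markers stood at 6987 and 18129 UPM. In the other direction, neutrophil markers made up 109917 UPM of the healthy library and 19053 of the CIA library, and lymphocyte markers (T, B and NK cell lists together) 8050 and 607. Of the 11 muscle stem cell and myoblast genes in the table, 10 were listed at 0 in both libraries.

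**Figure D1:**
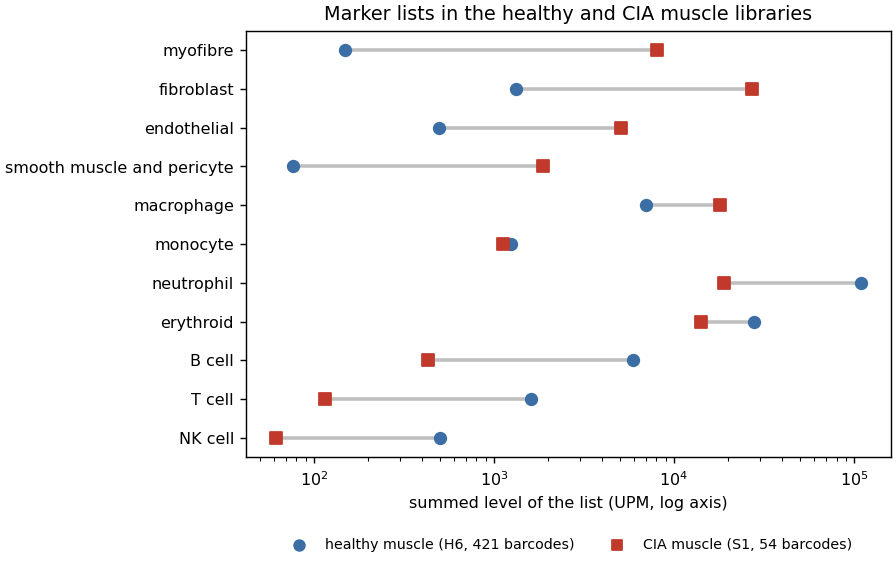
Summed level of 11 marker lists in UPM on a log axis, with 1 point per library and no error bars, since each state had 1 library. Lists of muscle tissue (myofibre 149 to 8060, fibroblast 1326 to 27245) lie to the right in CIA, and neutrophil, B cell, T cell and NK cell lists lie to the left.

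The libraries differed in more than state. The healthy library held 3333298 summed units in 245 distinct profiles, and the CIA library 423083 in 16, so that up to 12 and up to 8 barcodes shared all their values. Barcode totals had a median of 7033 (5249 to 18096) in healthy and 8147 (6574 to 8869) in CIA. Genes whose largest value in any barcode was 1 were 21.3% of the genes above 0 in healthy and 56.2% in CIA, and the lowest gene sum above 0 was 3.30 UPM in healthy and 16.5 in CIA. The titles end in CIA for the healthy library and in 2CIA for the CIA library, and the labels do not say what this stands for. The study's preparation notes list lysis of red cells for muscle of H6 and not for muscle of S1. Suffix, listed lysis and state cannot be told apart. The healthy library shared 0 of its cell barcodes with the other 29 libraries, and the CIA library shared 2 of its 54 with 7 of them. A value of 0 is given only as listed at 0, because Gapdh, which almost every cell transcribes, stood at 11.7 UPM in healthy and was listed at 0 in CIA, while Actb stood at 3714 and 4987.

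A size rule stood in for a test over all genes. It took the 5759 genes whose mean over the pair was 25 UPM or more and called a log2 difference of 2 or more, which is 4-fold on that scale. Of these, 1098 (19.1%) were higher and 606 (10.5%) lower in CIA. The median difference of all 5759 genes was 0.47, and why it lay above 0 was not tested. Trimmed-mean scaling brought this median to 0.01 and gave 600 higher and 721 lower genes, so that 45.4% of the calls were higher against 64.4% by the library total. Of the higher genes, 669 were listed at 0 in healthy, and of the lower genes 493 were listed at 0 in CIA. The largest value in any CIA barcode was 1 for 174 of the higher genes. It was 3 or more in the higher library for 510 of the higher and 572 of the lower genes, so that lower calls then outnumbered higher ones.

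Myofibre genes set the CIA library apart. Of the 49 listed, 19 were at 0 in both libraries and 20 passed the filter, of which 19 were higher and 0 lower in CIA, against 19.1% of all genes higher. Their median log2 difference was 4.26, against 0.47 over all genes. A gene absent from healthy could pass the filter only by its CIA level, so the 6 members in the rule that were above 0 in both libraries are given too, with a median of 4.28. Under trimmed-mean scaling 17 were higher.

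Fast-fibre sarcomere genes led the list. Mylpf (Entrez 17907, chromosome 7, 127208848 to 127214288, RefSeq GRCm38.p6), the regulatory light chain of fast myosin, stood at 12.6 UPM in healthy and 1759 in CIA, a log2 difference of 6.29. Acta1 (chromosome 8, 123891758 to 123894775), the skeletal muscle actin, stood at 48.0 and 969 UPM. Tnnc2, the calcium-binding troponin of fast fibres, stood at 8.70 and 922 UPM, and its partner Tnni2 at 12.3 and 489. All 7 fast-sarcomere genes in the rule were higher in CIA.

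Other parts of the fibre were there as well. Ttn, the giant spring of the sarcomere, was listed at 0 in healthy and stood at 581 UPM in CIA. The calcium-handling genes Trdn (340 UPM) and Ryr1 (170), of the calcium release machinery, and the calcium buffer Pvalb (241) were also listed at 0 in healthy. So was Ckm, the muscle creatine kinase, at 184 UPM in CIA. Ttn and Ryr1 were above 0 in all 54 CIA barcodes and Trdn in 45, against 14 for Pvalb. Of 8 slow-fibre genes, 5 were listed at 0 in both libraries, and the only 1 in the rule, Tnnt1, stood at 37.8 UPM in healthy and 26.0 in CIA. Myosin heavy chains are close copies of each other, and reads they share were not separated here, which makes the 329 UPM of Myh4 against 18.9 of Myh1 in CIA uncertain.

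Beside the other organs, the CIA muscle value was by far the highest of the 30 libraries, as the 28 libraries from other organs held 0 to 331 UPM of the myofibre list. Healthy muscle, at 149 UPM, ranked 14 among the 30. Its defining myofibre markers were thus at or near 0, and its highest level in any barcode was 630 UPM, so its label as muscle could not be checked from myofibre genes.

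**Figure D2:**
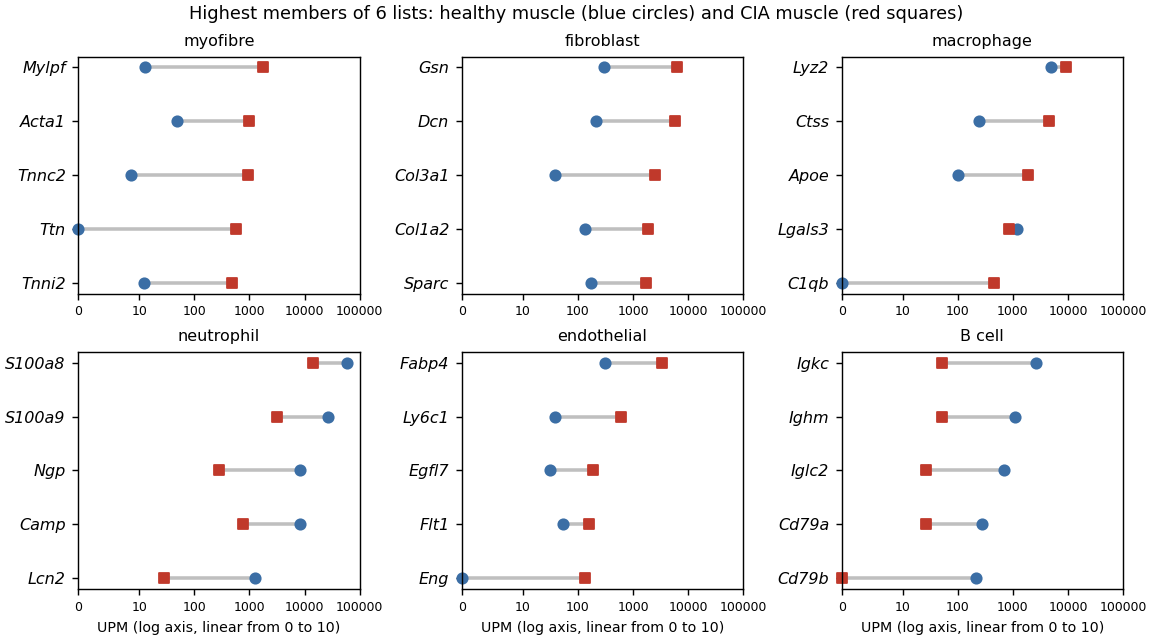
The 5 highest members of 6 lists in UPM, healthy as blue circles and CIA as red squares, on an axis that is linear from 0 to 10 and logarithmic above. The myofibre, fibroblast and endothelial members shown lie higher in CIA (Mylpf 12.6 to 1759), and the neutrophil and B cell members lower (Ngp 8449 to 284). Macrophage members differ in direction.

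The start regions of these genes can be read from RefSeq. The letters CAGCTG, an E-box that myogenic factors are known to bind and that reads the same on both strands, were searched in the 250 bases upstream of the start that the RefSeq table gives for each gene, which for Mylpf lies inside the gene's full span. They occurred in 4271 of 32851 promoter entries (13%). Of the genes that had an entry, 8 of the 14 higher myofibre genes and 2 of the 17 lower neutrophil genes held them. A gene was counted if any of its entries held the letters, so these shares and the 13% are not the same measure. A match is a description of the letters only. The 100 bases before the start are shown 5′ to 3′ for 2 fast-fibre genes of the CIA library and for S100a8, the leading gene of the healthy library, which also holds the letters, with the E-box in capitals.
Mylpf, chr7:127211508-127211607, plus strand: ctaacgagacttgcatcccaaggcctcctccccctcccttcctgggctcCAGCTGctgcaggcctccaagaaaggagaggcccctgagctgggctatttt
Myh4, chr11:67237712-67237811, plus strand: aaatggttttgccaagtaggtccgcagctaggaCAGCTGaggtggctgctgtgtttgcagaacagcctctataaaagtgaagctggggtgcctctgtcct
S100a8, chr3:90668971-90669070, plus strand: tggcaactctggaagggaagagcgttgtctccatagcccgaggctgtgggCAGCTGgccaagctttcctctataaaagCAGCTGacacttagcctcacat

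Fibroblast genes had the highest sum of the cell type lists in the CIA library. Of 33 listed, 31 passed the filter, and 30 of these were higher and 0 lower in CIA, against 19.1% of all genes higher and 10.5% lower, with a median log2 difference of 3.71. The 20 members above 0 in both libraries had a median of 3.59. Trimmed-mean scaling left 27 higher. The only member in the rule that was not higher was Hsd11b1, which activates glucocorticoids, at 59.7 UPM in healthy and 18.9 in CIA.

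Gsn, an actin-severing protein that fibroblasts also secrete, stood at 298 UPM in healthy and 6349 in CIA. Dcn (chromosome 10, 97479500 to 97518163), the small proteoglycan decorin that coats collagen fibrils, stood at 216 and 5701 UPM, a log2 difference of 4.66. All 4 fibrillar collagens in the rule were higher. Col3a1 stood at 39.0 and 2484 UPM, Col1a2 at 137 and 1907, and Col1a1 at 83.4 and 1068. Sparc, a collagen-binding matrix protein, stood at 172 and 1709 UPM.

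Genes that remodel or guard the matrix followed. Of 10 genes in the rule, 8 were higher, against 19.1% of all genes, and 0 lower, and the 7 above 0 in both libraries had a median log2 difference of 3.06. The protease inhibitors Timp3 (49.2 and 754 UPM) and Timp2 (54.6 and 527), the membrane protease Mmp14 (7.20 and 357) and the stromelysin Mmp3 (27.6 and 326) were among the 8, and the lysosomal protease Ctsb, with the highest level of the list (374 and 974), lay within the rule. Of 7 complement genes in the rule 6 were higher, against the same 19.1%, 4 of them listed at 0 in healthy, with C3, the central component, at 66.6 and 383 UPM and the protease C1s1 listed at 0 in healthy and at 265 in CIA.

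Of 14 tendon genes, 9 were listed at 0 in both libraries, and Thbs4 and Prg4, at 73.3 UPM each in CIA, were listed at 0 in healthy. Adipocyte and platelet lists were at 0 in both libraries, and cartilage and bone genes summed to 0 and 18.9 UPM.

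Vessel genes were also higher in CIA muscle. Of 12 endothelial genes in the rule 10 were higher, against 19.1% of all genes, and 0 lower, with sums of 498 UPM in healthy and 5082 in CIA. Of the 10, 5 were listed at 0 in healthy and could pass the filter only by their CIA level. The median log2 difference was 3.08, and 2.31 over the 7 members above 0 in both libraries. Fabp4, a fatty acid carrier of capillary endothelium that fat cells and macrophages also make, accounted for 315 and 3314 of these. Other endothelial genes had lower levels, as Ly6c1 stood at 37.8 and 600 UPM and Egfl7 at 30.6 and 191. Pecam1, the endothelial adhesion protein, stood at 44.7 and 106 UPM, within the rule. All 6 smooth muscle and pericyte genes in the rule were higher, with the pericyte gene Rgs5 at 11.7 and 527 UPM and the light chain Myl9 at 21.6 and 525. The endothelial and the mural sums of CIA muscle were the highest of the 30 libraries. Healthy joint, the next highest for endothelial genes, held 3624 UPM.

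Macrophage genes split. Of 16 in the rule, 8 were higher and 1 lower in CIA, against 19.1% and 10.5% of all genes, with a median log2 difference of 2.33 and a median of 1.35 over the 10 members above 0 in both libraries. The C1q genes, which encode the starter of the classical complement pathway and mark resident macrophages, were listed at 0 in healthy and stood at 151 (C1qa), 447 (C1qb) and 286 UPM (C1qc) in CIA. The C1qb value was the highest of all 30 libraries, 22 of which, among those from other organs, listed it at 0. Ctss, a protease of antigen processing, stood at 240 UPM in healthy and 4439 in CIA, and Apoe, the lipid carrier, at 99.0 and 1844.

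The other members in the rule were 7 within it and 1 lower. Lyz2, the lysozyme of all myeloid cells, stood at 4820 UPM in healthy and 9069 in CIA, a log2 difference of 0.91 that is within the rule. Lgals3 stood at 1204 and 834 UPM and Pf4 at 35.4 and 37.8. The other 4 within the rule had higher levels in CIA, namely Selenop (113 and 411 UPM), F13a1 (36.6 and 158), Trem2 (18.3 and 96.9) and Cd68 (48.3 and 80.4). Cd14, the endotoxin co-receptor, was lower in CIA, at 373 and 16.5 UPM, and it was the only lower member. The monocyte list summed to 1242 and 1125 UPM. Of its 6 genes in the rule 2 were higher and 2 lower, against 19.1% and 10.5% of all genes. The lower members were Ly6c2 and Chil3, and Chil3 stood at 425 UPM in healthy and was listed at 0 in CIA. Ly6c2, a marker of inflammatory monocytes, stood at 353 and 56.7 UPM and Fn1, fibronectin, was listed at 0 in healthy and stood at 437 in CIA. Fibroblasts also make fibronectin.

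Chemokines that draw monocytes were among the genes with the largest differences. Ccl12, with 820 UPM in CIA, Ccl8 (607) and Ccl7 (435), all of 1 cluster on chromosome 11, were listed at 0 in healthy, and Ccl2 stood at 44.1 and 827 UPM. Ccl12 had the largest log2 difference of all 5759 genes, 6.38. Ccl6 stood at 63.3 and 1385 UPM. Cxcl12, a stromal chemokine that holds leukocytes in tissue, was listed at 0 in healthy and stood at 442 UPM in CIA. Cxcl1, which draws neutrophils, was higher too, at 50.4 and 326 UPM. Of the 12 genes of the chemokine list in the rule, which holds neither Ccl12 nor Ccl5, 7 were higher, against 19.1% of all genes, and 5 lay within it. Ccl5, listed with the NK cell genes, was lower, at 403 UPM in healthy and listed at 0 in CIA. Those within were Ccl9 (40.2 and 180 UPM) and Cxcl16 (27.9 and 47.3), and, with lower levels in CIA, Cxcl2 (541 and 201), Ccl4 (155 and 54.4) and Ccl3 (96.9 and 37.8). Over the cytokine and chemokine list, 9 of 17 genes in the rule were higher and 0 lower, against 19.1% and 10.5% of all genes, but the median of the 12 members above 0 in both libraries was 0.13.

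Of the 6 upstream regulators that the study singled out, Il1b and Dsc3 were listed at 0 in both libraries. Apoe, with 99.0 UPM in healthy and 1844 in CIA, was called higher, with a log2 difference of 4.09. The other 3 lay within the rule with lower levels in CIA. Ltf stood at 1130 and 281 UPM, a log2 difference of -1.97 just short of the size called. Tgfb1 stood at 69.3 and 18.9 UPM and Tnf at 95.7 and 73.3. Il6, an inflammatory cytokine, was listed at 0 in healthy and stood at 135 UPM in CIA. For muscle of all its mice, read by cell type, the paper reported raised Il1b and Tgfb1 and lowered Tnf and Apoe. The values here cover 1 library per state summed over all barcodes, and Apoe and Tgfb1 ran the other way.

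Neutrophil genes had the highest sum of the cell type lists in the healthy library. They made up 11.0% of its units, the second highest of the 30 libraries after a CIA joint library (139575 UPM), and 1.91% of the units of CIA muscle. Of 23 genes in the rule, 0 were higher and 18 lower in CIA, against 10.5% of all genes lower, with a median log2 difference of -3.69 and a median of -2.29 over the 12 members above 0 in both libraries. Trimmed-mean scaling made 19 lower.

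The calcium-binding alarmins S100a8 and S100a9, which pair as calprotectin, were the 2 highest genes of the healthy library. S100a8 (chromosome 3, 90669071 to 90670034) stood at 59333 UPM in healthy and 14030 in CIA, where it was still the second highest gene. S100a9 stood at 26899 and 3179 UPM. Of 8 secondary and tertiary granule genes in the rule, 5 were lower. Ngp stood at 8449 and 284 UPM, Camp, a cathelicidin, at 8359 and 756, and Lcn2, which binds bacterial iron carriers, at 1264 and 28.4. The 3 within the rule were Ltf, Mmp8 (83.4 and 28.4 UPM) and Lrg1 (66.6 and 30.7).

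The genes of primary granules were above 0 in the healthy library and listed at 0 in CIA. All 5 primary-granule genes, among them the proteases Elane (227 UPM) and Prtn3 (121) and the peroxidase Mpo (119), showed this. Fcnb, in none of the lists, and Chil3, of the monocyte list, are also known from developing granulocytes. They stood at 448 and 425 UPM in healthy and were listed at 0 in CIA. Of 9 secondary and tertiary granule genes 3 were listed at 0 in CIA alone, while Ngp (284 UPM), Camp (756) and Ltf (281) were above 0 there. The lowest gene sum above 0 in CIA was 16.5 UPM, so a listed 0 does not show absence. Elane was at 0 in 22 of the 28 libraries from other organs and reached 358 UPM in a CIA joint library. Ngp and Camp were higher in healthy muscle than in any other library, with 5629 and 5650 UPM the highest values elsewhere, both in joint. Of 4 receptors in the rule, Clec4d (146 UPM) and Trem1 (123) were lower, both listed at 0 in CIA. Ly6g, at 56.4 and 28.4 UPM, and the decoy receptor Il1r2, at 32.1 and 137, lay within the rule.

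Lymphocyte genes were lower in CIA muscle, in 21 of 27 genes in the rule, against 10.5% of all genes, with 0 higher. Most rest on absence, as 31 of the 50 listed genes were listed at 0 in CIA alone and the 11 members in the rule above 0 in both libraries had a median log2 difference of -1.85. Of the B cell genes, Igkc, the kappa light chain constant region, stood at 2607 UPM in healthy and 52.0 in CIA, and Ighm at 1070 and 52.0. The signalling partners Cd79a (273 and 26.0 UPM) and Cd79b (217, and 0 in CIA) ran the same way. The plasma cell gene Jchain stood at 264 UPM in healthy and was listed at 0 in CIA. Of the T cell genes, the receptor chains Trbc2 (363 and 40.2 UPM) and Trbc1 (257, and 0 in CIA) led, and Cd3d stood at 154 and 0. Ccl5, given above, is made by T and NK cells. The lymphocyte sum of CIA muscle, 607 UPM, ranked 28 of 30.

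Red cell genes summed over the library were lower in CIA, but their median over barcodes was higher, at 7889 UPM (lowest 6310) against 3053 in healthy, where 1 profile of 10 barcodes reached 560628. Hbb-bs stood at 18823 UPM in healthy and 12716 in CIA, and Hba-a1 at 6635 and 889. Globin genes have near-identical copies, so their split is uncertain.

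**Figure D3:**
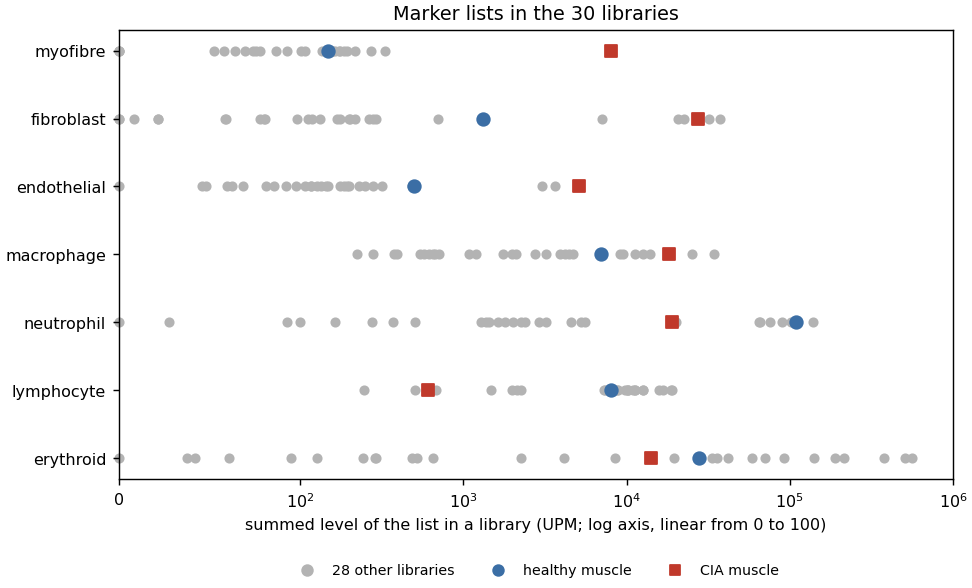
Summed level of 7 lists in each of the 30 libraries (UPM; linear from 0 to 100, logarithmic above), with healthy muscle in blue, CIA muscle in red and the 28 other libraries in grey. CIA muscle stands alone for the myofibre list (8060 against at most 331 elsewhere), and for the neutrophil list healthy muscle (109917) lies between a CIA joint library (139575) and a CIA spleen library (101677).

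Which barcodes carried each programme was read next. Smoothing adds up neighbours, so a barcode is a local mix and barcodes are not replicates. In CIA muscle the 16 profiles fell into 4 kinds by levels set after the values were seen. The first, with at least 10000 UPM of myofibre genes, held 7 profiles and 14 barcodes (25.9%). The second, with at least 20000 UPM of macrophage genes and few of myofibre, held 3 profiles and 9 barcodes. The third, with at least 50000 UPM of fibroblast genes, held 4 profiles and 20 barcodes (37.0%), and the last, with at least 10000 UPM of endothelial genes, 2 profiles and 11 barcodes. The kinds are named by the list that parted them, which was not always their highest: all 7 profiles of the first held more of the macrophage list, and both of the last held more of the neutrophil list (71034 and 71697 UPM) than of the endothelial list (14545 and 14590). In the fibroblast kind, 1 profile of 1 barcode held 85927 UPM of the neutrophil list against 56871 of the fibroblast list.

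**Figure D4:**
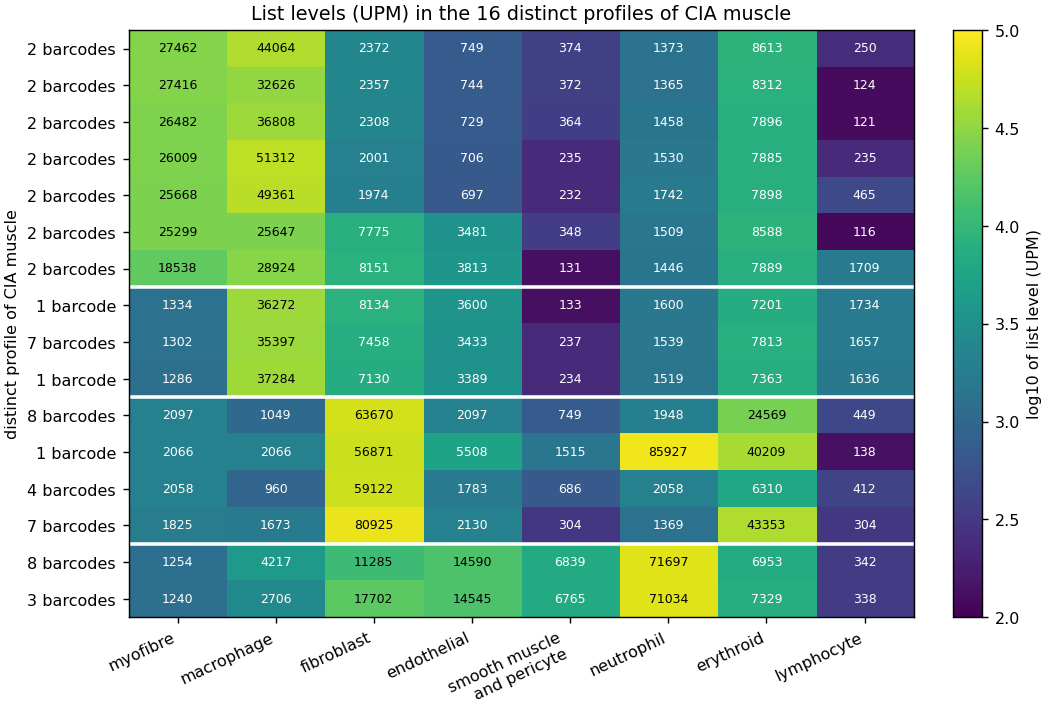
List level in UPM (number and colour, log10 scale) in the 16 distinct profiles of CIA muscle, with white lines between the 4 kinds. The 7 profiles with 18538 to 27462 UPM of myofibre genes also hold 25647 to 51312 UPM of macrophage genes, and neutrophil genes stand at 71034 UPM or more in 3 profiles.

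The myofibre RNA came with macrophage RNA. The 7 myofibre profiles held 18538 to 27462 UPM of myofibre genes, and the same profiles held 25647 to 51312 UPM of macrophage genes, against 1365 to 1742 of neutrophil genes. In the other 9 profiles the myofibre list stood at 1240 to 2097 UPM. In units, 6 of the 7 profiles held 218 to 221 of the list and the seventh 141, while the 9 others held 10 to 15. Smoothing can add the same source barcode into several neighbourhoods, so the number of cells behind the myofibre signal cannot be read from the number of barcodes. Mylpf stood at 6142 UPM in this kind and at 0 to 199 in the others, and Myl1 was listed at 0 outside this kind. Ttn was spread more evenly, from 226 to 833 UPM over the kinds, and Ryr1 stood at 114 to 236. Trdn stood at 468 UPM in the myofibre kind, 420 in the fibroblast kind and 341 in the last, and was listed at 0 in the macrophage kind. The level of the myofibre list outside its kind thus rests in part on Ttn and Ryr1.

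The neutrophil list stood at 71034 to 85927 UPM in 3 profiles with 12 barcodes, both profiles of the last kind and 1 fibroblast profile, and at 1365 to 2058 UPM in the other 13. In units the 3 profiles held 624 to 630 and the next 15. Ngp and Ltf were above 0 in 3 of the 16 profiles.

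The levels of chemokines and matrix genes differed between the kinds. Ccl12 stood at 1683 UPM in the myofibre kind and 2035 in the macrophage kind and was listed at 0 in the other kinds, as was Mmp12, the macrophage elastase, with 1006 and 1436 UPM. Ccl6 (3158 and 2846 UPM) and Ccl2 (1822 and 1383) lay mainly there too. Ccl8 stood at 1909 UPM in the myofibre kind and at 0 to 206 in the others. Ccl7 stood at 729 UPM in the myofibre kind and 736 in the fibroblast kind and was listed at 0 in the others. Cxcl12 and Cxcl1 were highest in the fibroblast kind, at 1119 and 824 UPM, and so were Mmp3 (1016 UPM), listed at 0 in the other kinds, and C3 (839). Fabp4 reached 10228 UPM in the last kind, with Timp3 at 2614 and S100a8 at 52877. Of the other endothelial genes, Egfl7 was highest there too, at 796 UPM, whereas Ly6c1 stood at 682 there and at 1207 in the fibroblast kind. Fos stood at 1811 to 3182 UPM in all 4 kinds.

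In the healthy library every barcode held neutrophil genes. Their level ran from 3097 to 486797 UPM with a median of 7760, and 81 of the 421 barcodes, in 23 profiles, held at least 100000 UPM. These 23 profiles also held 6826 to 20500 UPM of the macrophage list, which includes Lyz2, and the part of neutrophils in that list's healthy level was not tested. In the richest profile S100a8 alone took 263104 UPM. The lowest healthy level, 3097, lay above the 1365 to 2058 UPM of the 13 poor CIA profiles. Macrophage genes ran from 299 to 33912 UPM, and the profile at the top was led by Lyz2 (25290 UPM) and Fth1, the ferritin heavy chain. At least 2000 UPM of them was held by 190 healthy barcodes (45.1%) and 35 CIA barcodes (64.8%).

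A few healthy barcodes carried other programmes. In 1 profile of 3 barcodes the B cell list reached 114634 UPM, with Igkc at 78205, Ighm at 28348 and Jchain at 26856, a plasma cell gene. In 10 barcodes with equal values the erythroid list reached 560628 UPM. The fibroblast list reached 31910 UPM in 3 barcodes and at least 10000 in 6, against 31 of the 54 CIA barcodes. Lymphocyte genes stood at 2000 UPM or more in 377 healthy barcodes (89.5%) and in 0 CIA barcodes, whose highest level was 1734.

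**Figure D5:**
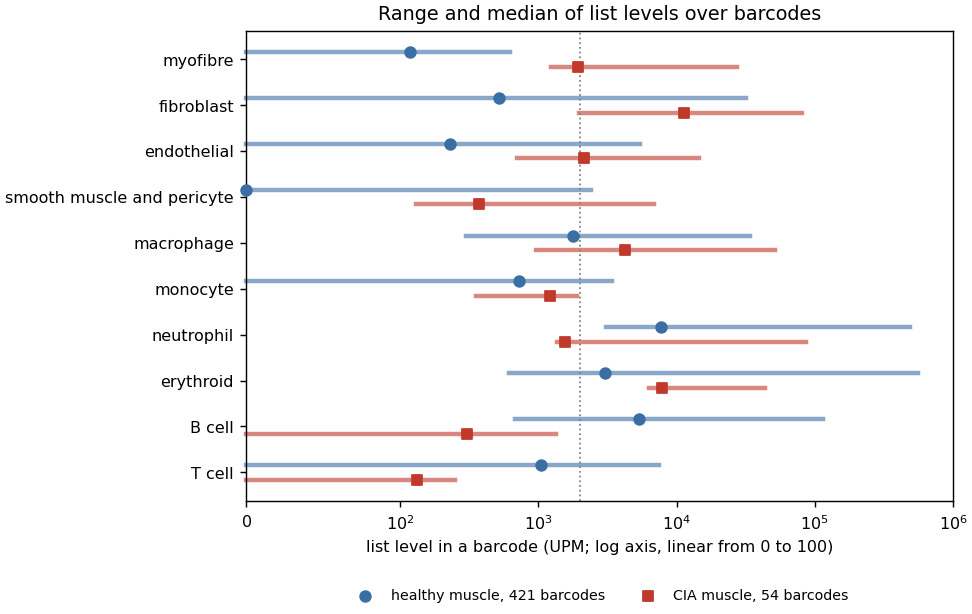
Lowest to highest level (bars) and median (points) of 10 lists over the barcodes of each library, in UPM on an axis that is linear from 0 to 100 and logarithmic above, with a dotted line at 2000 UPM. All CIA barcodes hold more of the myofibre list (1240 to 27462) than any healthy barcode (0 to 630). Of that list, Ttn and Ryr1 were above 0 in all 54 CIA barcodes, and Myl1 and Pvalb in 14. The neutrophil ranges overlap (1365 to 85927 and 3097 to 486797).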

How the data were processed

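The authors aligned Seq-Well reads with STAR, counted molecular identifiers, filtered cells and smoothed them over nearest neighbours (knn, k = 12). The methods name the mouse build GRCm38, and the submitters' processing notes list mm9 and GRCh38, with the tools bcl2fastq, Picard and STAR. The deposited values are therefore a smoothed signal of whole numbers, not counts, and no counting interval was derived from them. The table has no coordinates, so symbols and positions came from a RefSeq GRCm38.p6 gene table by Entrez number. Of 23013 rows, 1609 had no symbol, and these held 1.26% of healthy and 3.37% of CIA units. They stayed in totals.

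Values were summed per library and scaled to UPM (numpy 2.4.6, pandas 2.3.3, Python 3.11.15). No test was made, since each state had 1 mouse. The size rule, filter and pseudocount of 10 are given with the results, and the rule was checked on simulated libraries. No doublet caller was run on the smoothed profiles. Named genes were up to 5 highest members per list, the 10 largest differences per direction, the 10 highest genes per library and the study's upstream regulators. Genes given beyond these, and the levels that part profiles into kinds, were chosen after their values were seen. The members and lists were chosen with earlier results of these data known. Alternatives tried were 3 other scalings, distinct profiles counted once, genes above 0 in both libraries, lists without their highest member, 2 pseudocounts, 2 filters, other barcode levels and a minimum largest value.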

Additional observations from a re-analysis of the deposited data

How the results depend on the processing

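The sums of the 5 programmes kept their direction under every alternative. Fibroblast (3.83 to 4.35) and lymphocyte (-4.22 to -3.17) log2 differences stayed within 1.5 times of the values by library total. The myofibre difference, 5.66, was 4.83 over genes above 0 in both libraries. The macrophage difference, 1.37, was 0.85 with trimmed-mean scaling and 0.86 with the median of ratios, 2.49 with each distinct profile taken once and 2.06 without Lyz2, and the neutrophil difference, -2.53, was -3.33 without S100a8. Counts of genes depended on the settings. The 1098 higher genes became 600 with trimmed-mean scaling, 602 with the median of ratios, 467 over genes above 0 in both libraries, 219 with a pseudocount of 50, 1700 with no filter, 261 with a filter at 100 UPM and 510 with a largest value of 3 or more, an alternative chosen after the data were seen. The 606 lower genes became 111 over genes above 0 in both libraries, 95 with a pseudocount of 50, 1235 with no filter and 111 with a filter at 100 UPM. Shares of barcodes moved with the level. At 1000 instead of 2000 UPM, healthy shares were 79.1% for macrophage and 97.4% for lymphocyte genes, and CIA shares were 100% for myofibre, fibroblast and neutrophil, 92.6% for macrophage and 20.4% for lymphocyte genes. At 5000 UPM, healthy shares were 6.65% for fibroblast, 29.5% for macrophage, 89.1% for neutrophil and 67.0% for lymphocyte genes, and CIA shares were 25.9% for myofibre, 81.5% for fibroblast and 42.6% for macrophage genes. Over distinct profiles, macrophage shares were 33.5% in healthy and 81.3% in CIA, and the healthy lymphocyte share was 93.9%. Apart from these constructions (fewer genes, other levels), the cause was not tested. No paired analysis was possible because each state had 1 library and no result came from a test. With 54 CIA barcodes in 16 profiles, a gene at 0 there is not shown to be absent.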

Other observations

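Antigen presentation, stress and housekeeping genes mostly lay within the size rule, and their counts stand against 19.1% of all genes higher and 10.5% lower. Class II genes, led by the invariant chain Cd74 at 6216 UPM in healthy and 2505 in CIA, had 0 of 7 higher and 1 lower, and class I genes had 1 of 8 higher, Psmb9 (19.2 and 156 UPM). Interferon-stimulated genes had 5 of 13 higher and 0 lower. Of the 5, Rtp4 and Gbp2 were listed at 0 in healthy, and the 11 members above 0 in both libraries had a median log2 difference of 1.24. Ifitm3, a membrane barrier to viruses, stood at 184 and 1525 UPM and Ifi27l2a at 79.8 and 1262. Of 21 immediate early and heat shock genes, Fos (353 and 2279 UPM), Egr1 (283 and 2101) and Atf3 (222 and 1127) were higher and 0 were lower, a share of higher genes below that of all genes. Handling of tissue is known to induce these genes, and its part in these levels was not tested. Cytosolic ribosomal protein genes summed to 128434 and 66528 UPM with a median log2 difference of -0.86, and 1 of 74 was higher and 6 lower. Oxidative phosphorylation genes had 8 of 89 higher and 2 lower, both shares below those of all genes. The 8 included the muscle forms Cox6a2, Cox7a1 and Cox8b and 4 entries named as pseudogenes. Glycolysis genes had 0 of 8 higher and 4 lower, with sums of 1334 UPM in healthy and 584 in CIA, and cell cycle genes had 1 of 7 higher and 2 lower, with sums of 2268 and 938.

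Other cell lists were small. The sum of the dendritic cell genes was 440 UPM in healthy and 99.3 UPM in CIA, with Schwann cell genes at 415 and 132, keratinocyte genes at 149 and 0, and mast cell genes at 51.3 and 0. NK cell genes stood at 502 and 61.5 UPM.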
